A study of Mus musculus with 14 samples.

Results

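The mitochondrial ribosomal proteins are the products of the nuclear genes whose symbols begin with Mrpl or Mrps followed by a digit. The letters stand for the large and the small subunit, but not every symbol matches the subunit of its protein. These genes were followed here in mouse ventricle after myocardial infarction (MI). The scanner output names each probe by a transcript accession and carries no gene symbols, so members were found by matching that accession to RefSeq and taking every symbol of this form. This gave 100 probes of 78 genes, of 55482 probes and 20614 named genes on the array, and all 78 RefSeq genes of this form with a transcript had a probe. Levels were high enough to test for 99 probes of 77 genes. The exception was Mrpl21, whose only probe was well above background on 1 of the 10 arrays for which this could be judged. Each of the 99 probes was well above background on all of those 10 arrays, so none was tested through a single group.

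Mitochondria keep a ribosome of their own, which translates the few messages of mitochondrial DNA. All of those messages encode subunits of the respiratory chain and of ATP synthase, the machinery on which the beating heart depends for its energy. The RNA of the mitochondrial ribosome comes from mitochondrial DNA, but every one of its proteins is encoded in the nucleus, made in the cytosol and imported. Some have a counterpart in the ribosome of bacteria, and the rest are found in mitochondria only. One gene keeps an old name: Mrps36 is now known to encode an adaptor of the oxoglutarate dehydrogenase complex and is no ribosomal subunit, so it belongs to the members by its symbol alone.

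The study used male C57BL/6 mice, 8 weeks old, with no transgene or drug named. In the MI groups the left anterior descending coronary artery was tied off permanently. Sham mice had the operation without the tie. Border zone tissue of the ventricle was taken at 3 days (MI 3 days, n = 5 arrays) or at 14 days (MI 14 days, n = 5). There were 4 sham arrays; the design text speaks of 5 sham and 10 ligated mice, with 1 sample per array, and does not say when the sham hearts were taken. Time after surgery therefore cannot be told apart from the infarction where the sham group is the control. The labels name total RNA for labelling and also a poly-T purification of mRNA.

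Levels are given as log2 signal above the 75th percentile of the same array. The 75th percentile itself was 188.6 to 443 intensity units, and 54.8% to 66.1% of probes were well above background on the 10 arrays with scanner output. The markers placed the tissue as heart muscle: all 10 cardiomyocyte markers, among them Myh6, Tnnt2 and Ryr2, were well above background on every array where this could be judged. They were not used to place the tissue within the heart, and atrial genes varied widely between sham arrays. The 3 groups were fitted together in limma over all 32261 probes that could be tested, so both comparisons with sham share the same 4 sham arrays. Changes are log2 fold changes ± SE. An adjusted p under 0.05, after Benjamini-Hochberg adjustment over all tested probes, counted as past the threshold. Where a gene had several probes, its brightest one was used.

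At 3 days after infarction the RNA of nearly all genes for mitochondrial ribosomal proteins was lower than in sham hearts. Protein was not measured. Of the 77 tested genes 74 fell, 1 rose (Mrpl52) and 2 did not pass the threshold (Mrpl17 and Mrps18c). Infarction moved a large part of the transcriptome at this time: 70.2% of all 14870 tested genes passed, 40.5% of them as lower and 29.8% as higher. The median change of the members was -0.83, a fall of 43.9% at the median, beside -0.15 over all genes tested. Their changes ran from -1.63 to 0.37, with a middle range from -1.07 to -0.60. At least 2-fold lower were 29 of the 77, beside 14.4% of all tested genes. For 75 members the 5 infarct arrays did not overlap the 4 sham arrays, beside 63.2% of all tested genes. In whole tissue, fewer cells of a type and less RNA per cell cannot be told apart.

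**Figure D1:**
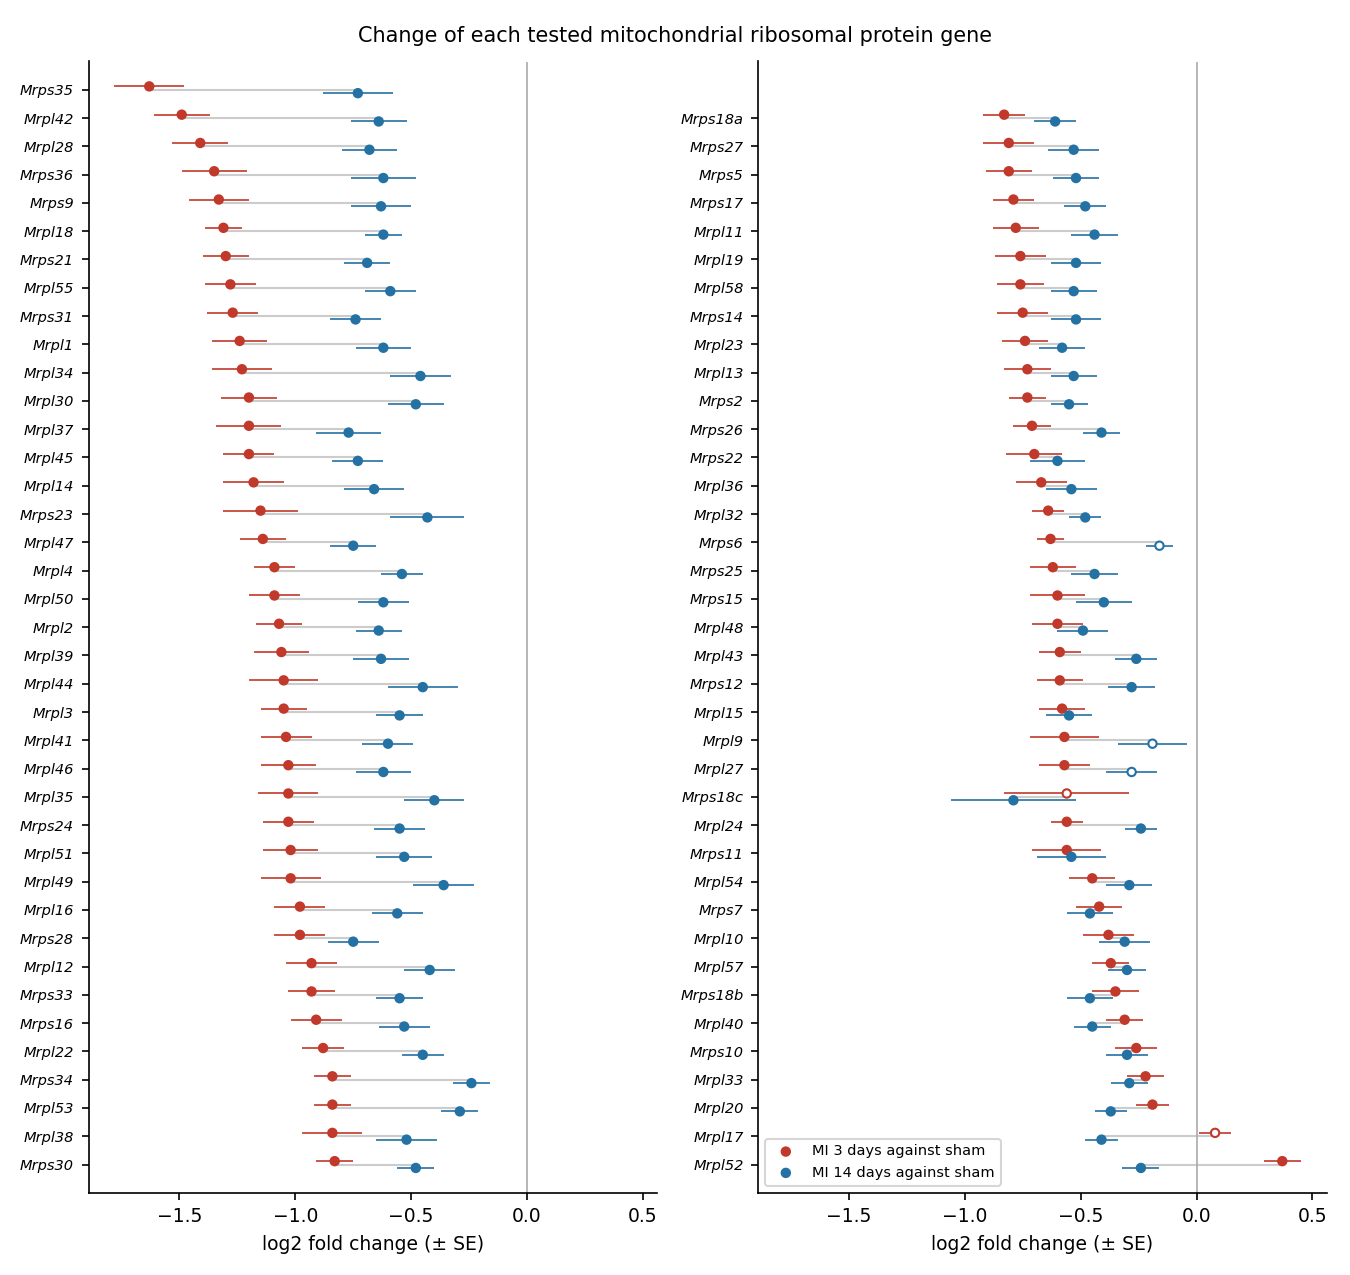
Log2 fold change ± SE (x axis) of each of the 77 tested genes, ordered by the change at 3 days, at 3 days (red) and 14 days (blue) against sham; filled points passed an adjusted p under 0.05 and open points did not. Nearly all points lie left of 0 at both times, and at 3 days Mrpl52 alone lies to the right of 0 among the genes past the threshold.

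The largest fall was in Mrps35, a mitochondria-specific protein of the head of the small subunit. Its levels were 3.97, 3.79, 3.82 and 3.96 in the sham arrays, 2.24, 2.10, 2.15, 2.37 and 2.44 at 3 days, and 3.30, 3.18, 2.59, 3.22 and 3.49 at 14 days. The 3 groups did not overlap, with the 3-day arrays lowest and the 14-day arrays between the others. Its log2 fold change was -1.63 ± 0.15 at 3 days (67.6% lower, limma adjusted p = 4.49e-07) and -0.73 ± 0.15 at 14 days (adjusted p = 0.00237).

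Next came Mrpl42, a mitochondria-specific protein of the large subunit. Its sham levels were 5.18, 4.99, 5.06 and 5.12, against 3.58, 3.53, 3.35, 3.70 and 3.85 at 3 days and 4.55, 4.48, 4.08, 4.45 and 4.70 at 14 days. Every 3-day array lay below every 14-day array, and both groups lay below sham. The change at 3 days was -1.49 ± 0.12 (64.3% lower, limma adjusted p = 2.04e-07).

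Mrpl28, which has a bacterial counterpart, stood at 3.67, 3.63, 3.68 and 3.72 in sham hearts. It was at 2.27, 2.07, 2.29, 2.32 and 2.37 at 3 days, and at 3.15, 3.02, 2.56, 2.97 and 3.26 at 14 days. The order of the groups was again sham, 14 days, 3 days, with no overlap, and the 3-day change was -1.41 ± 0.12 (62.4% lower, limma adjusted p = 2.36e-07). Mrpl18, the counterpart of the bacterial protein that binds the 5S RNA, had the smallest spread of these genes. Its sham levels were 5.33, 5.16, 5.22 and 5.25, with 4.01, 3.92, 3.78, 3.99 and 3.97 at 3 days and 4.71, 4.69, 4.44, 4.61 and 4.65 at 14 days. That is a change of -1.31 ± 0.08 at 3 days (59.6% lower, limma adjusted p = 1.34e-08). Falls of about the same size were found for Mrps9 (-1.33 ± 0.13), a head protein, Mrps21 (-1.30 ± 0.10) and Mrpl55 (-1.28 ± 0.11). Mrps36, the dehydrogenase adaptor, fell by 1.35 ± 0.14. Without Mrps36 the counts were 73 lower and 1 higher of 76 and the median was still -0.83.

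**Figure D2:**
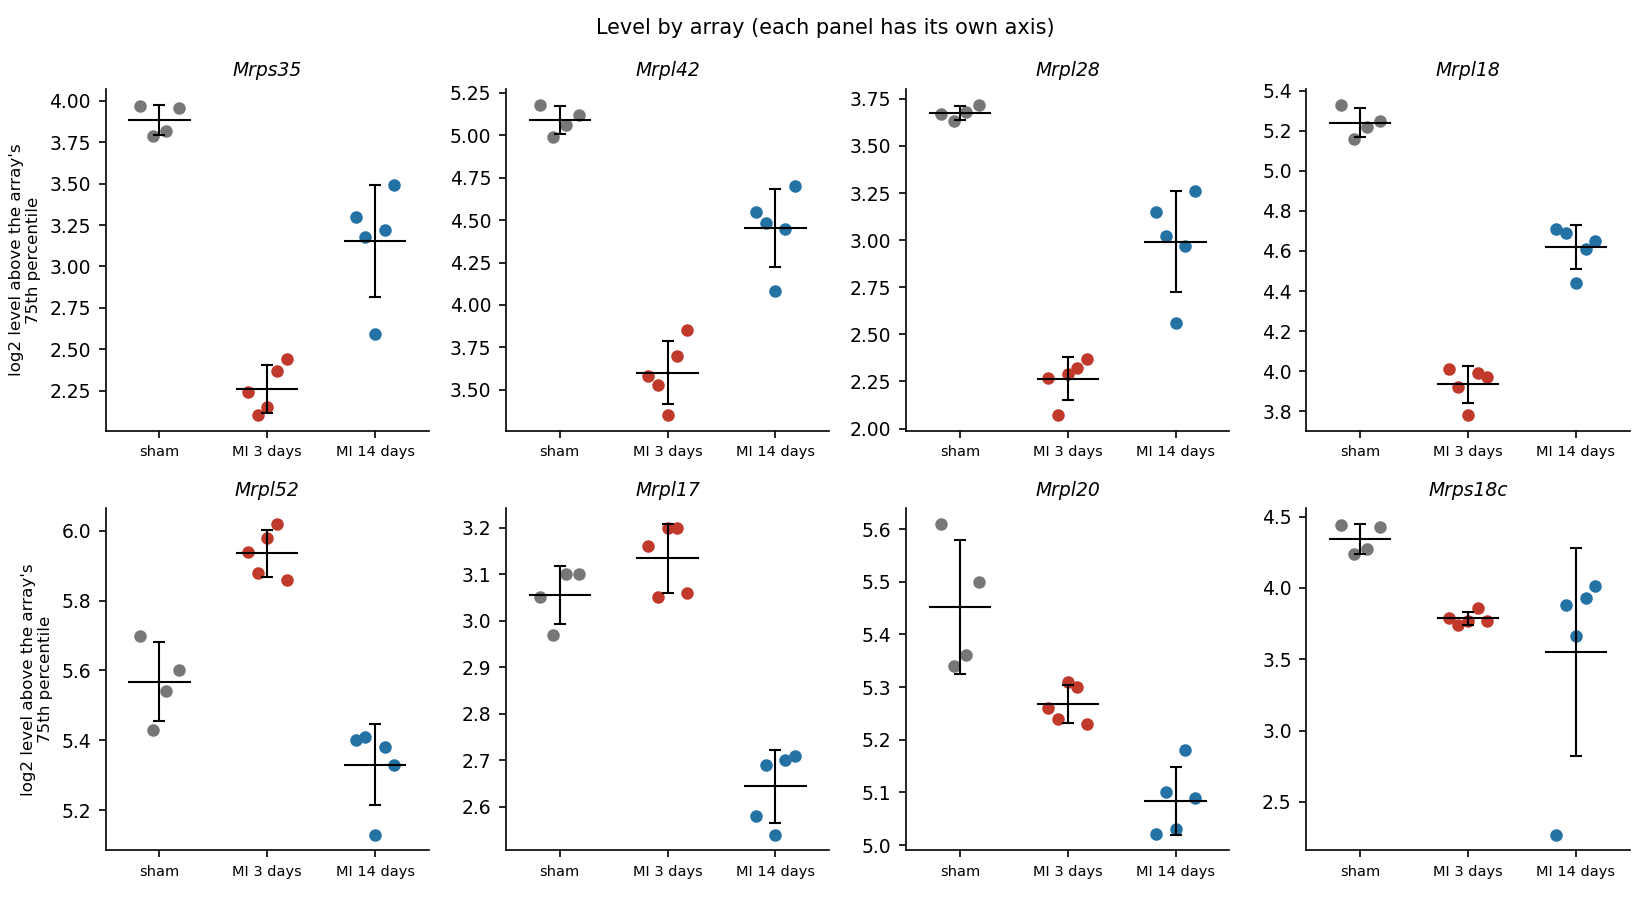
Level of 8 member genes on each array (y axis, log2 signal above the array's 75th percentile, a separate scale in each panel) in sham (n = 4), MI 3 days (n = 5) and MI 14 days (n = 5); points are arrays, bars the mean ± SD. The upper 4 genes are lowest at 3 days; in the lower row Mrpl52 is highest at 3 days, and 1 array at 14 days sets Mrps18c apart.

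The fall in RNA reached genes for every region of the particle. By subunit, assigned gene by gene and not by symbol, 48 of 50 tested large-subunit genes and 25 of 26 small-subunit genes fell. The medians were -0.86 and -0.77. Genes for proteins with a bacterial counterpart (45 tested, median -0.78) and for mitochondria-specific ones (31 tested, median -0.84) fell in 43 and 30 cases. All 5 genes for proteins around the peptidyl transferase centre, where peptide bonds are made, fell (median -1.05). So did all 8 of the small-subunit head (median -0.98), all 6 of the central protuberance (median -0.80) and all 5 of the stalk and its base, where translation factors dock (median -0.78). Of 8 genes for proteins near the tunnel exit, through which the new peptide leaves, 7 fell (median -0.97), among them Mrpl45, a membrane anchor of the ribosome (-1.20 ± 0.11), and Mrpl47 (-1.14 ± 0.10). The eighth was Mrpl17. No difference between these regions was tested.

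**Figure D3:**
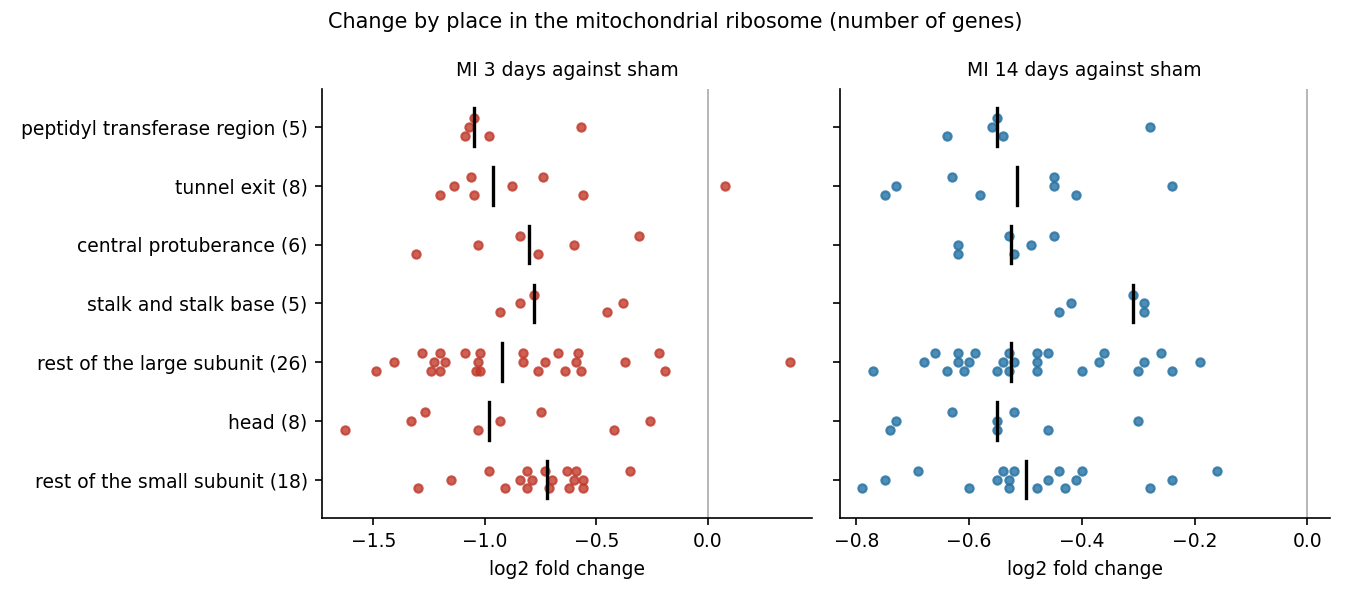
Log2 fold change (x axis) of each tested subunit gene at 3 days (left) and 14 days (right) against sham, grouped by place in the ribosome with the number of genes; black bars are medians. Each place has its median below 0 at both times, from -1.05 to -0.72 at 3 days.

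A few genes went their own way at 3 days. Mrpl52, a mitochondria-specific protein of the large subunit, was the one member that rose. Its sham levels were 5.70, 5.43, 5.54 and 5.60. At 3 days they were 5.94, 5.88, 5.98, 6.02 and 5.86, and at 14 days 5.40, 5.41, 5.13, 5.38 and 5.33. All 3-day arrays were above all sham arrays, and all 14-day arrays were below them. The change was 0.37 ± 0.08 at 3 days (29.0% higher, limma adjusted p = 0.00136), -0.24 ± 0.08 at 14 days (adjusted p = 0.0392) and -0.61 ± 0.08 from 3 to 14 days (adjusted p = 2e-05). It was higher at 3 days in all 26 other settings tried (0.32 to 0.59), and missed the threshold in 1, with slides as blocks (adjusted p = 0.0585). Its fall at 14 days missed the threshold or turned in 16 of the 26 (-0.29 to 0.03).

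Mrpl17, which has a bacterial counterpart and lies near the tunnel exit, passed the threshold only after 3 days. It stood at 3.05, 2.97, 3.10 and 3.10 in sham hearts, at 3.16, 3.05, 3.20, 3.20 and 3.06 at 3 days, and at 2.58, 2.69, 2.54, 2.70 and 2.71 at 14 days. The sham and 3-day arrays overlapped, and all 14-day arrays were lower than both. The change was 0.08 ± 0.07 at 3 days (limma adjusted p = 0.319) and -0.41 ± 0.07 at 14 days (adjusted p = 0.00084). After subtraction of each array's median the 3-day value was 0.26 (adjusted p = 0.0327), and after quantile normalization 0.22 (adjusted p = 0.00962).

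Mrpl20, the counterpart of a bacterial assembly protein of the large subunit, moved down in small steps. Its levels were 5.61, 5.34, 5.36 and 5.50 in sham, 5.26, 5.24, 5.31, 5.30 and 5.23 at 3 days, and 5.02, 5.10, 5.03, 5.18 and 5.09 at 14 days. The groups did not overlap, though the gap between the lowest sham and the highest 3-day array was narrow. Its change was -0.19 ± 0.07 at 3 days (limma adjusted p = 0.0351) and -0.37 ± 0.07 at 14 days (adjusted p = 0.00191). The 3-day call was lost or turned in 15 of 26 other settings (-0.23 to 0.01). Its fall from 3 to 14 days (-0.18 ± 0.07, limma adjusted p = 0.0355) lost its call in 15 of the 26 (-0.38 to -0.09). Small falls at 3 days were also measured for Mrpl33 (-0.22 ± 0.08), Mrps10 (-0.26 ± 0.09), Mrpl40 (-0.31 ± 0.08) and Mrps18b (-0.35 ± 0.10).

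Mrps18c missed the threshold at 3 days (-0.56 ± 0.27, limma adjusted p = 0.0867) although its arrays did not overlap. Its sham levels were 4.44, 4.24, 4.27 and 4.43 and its 3-day levels 3.79, 3.74, 3.77, 3.86 and 3.77. At 14 days the levels were 2.27, 3.88, 3.66, 3.93 and 4.01, so that replicate 1 lay far below the rest. Without that array the 3-day change had an adjusted p of 8.13e-05 at the same size, since the groups share 1 estimate of the spread.

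Of the 22 genes with more than 1 tested probe, Mrpl15 alone had probes that passed in opposite directions. The standing probe had 3.98, 3.88, 4.11 and 4.05 in sham, 3.42, 3.28, 3.47, 3.52 and 3.46 at 3 days, and 3.41, 3.63, 3.15, 3.52 and 3.59 at 14 days. The other probe had 0.80, 0.73, 0.56 and 0.96 in sham, 1.40, 1.29, 1.44, 1.31 and 1.23 at 3 days, and 0.70, 0.75, 0.58, 0.87 and 0.83 at 14 days. At 3 days the first fell (-0.58 ± 0.10, limma adjusted p = 0.000186) while the other rose (0.57 ± 0.09, adjusted p = 9e-05). The mean of both probes gave -0.0028. Mrpl15 is therefore counted as lower on the standing probe only. For several other genes only 1 of 2 probes passed in a comparison. The other probe of Mrpl27 fell at 14 days (-0.41 ± 0.10, limma adjusted p = 0.0067). That of Mrps18b fell from 3 to 14 days (-0.30 ± 0.08, limma adjusted p = 0.00597). The rise of Mrpl49 between these times (0.66 ± 0.12) was not seen on its other probe (0.06 ± 0.11, limma adjusted p = 0.684).

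At 14 days the set was still lower than in sham hearts, by less. Of the 77 genes 74 fell and none rose, and 3 did not pass: Mrpl9, Mrpl27 and Mrps6. Among all tested genes 40.1% passed at this time, 24.2% as lower and 15.9% as higher. The median change was -0.52 (all genes -0.08), a fall of 30.4% at the median, and none of the 77 had a fall of 2-fold (1.64% of all tested genes did), the deepest being -0.79. For 70 members the 14-day and sham arrays did not overlap, beside 35.2% of all tested genes. With slides as blocks, over the 10 arrays with scanner output, 38 members passed, all lower, at a median of -0.53. In that setting 11.4% of all tested genes were lower. After Mrps18c (-0.79 ± 0.27, limma adjusted p = 0.0386), which was at -0.48 without replicate 1 (adjusted p = 0.00213), the largest fall was in Mrpl37, a mitochondria-specific protein of the large subunit. Its levels were 2.45, 2.10, 2.39 and 2.34 in sham, 0.95, 0.99, 1.25, 1.23 and 1.20 at 3 days, and 1.84, 1.46, 1.11, 1.61 and 1.74 at 14 days. All 14-day arrays were below sham, with replicate 3 inside the range of the 3-day arrays, and the change was -0.77 ± 0.14 (41.3% lower, limma adjusted p = 0.00109). Mrpl47 (-0.75 ± 0.10), Mrps28 (-0.75 ± 0.11), Mrps31 (-0.74 ± 0.11), Mrps35 (-0.73 ± 0.15) and Mrpl45 (-0.73 ± 0.11) followed. The 5 genes of the stalk and its base had the smallest median at 14 days, -0.31, beside -0.50 to -0.55 in the other 6 places.

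From 3 to 14 days, 51 genes rose, 3 fell (Mrpl17, Mrpl20 and Mrpl52) and 23 did not pass, with a median of 0.35 (all genes 0.08). Of all tested genes 60.5% passed between these times, 33.6% as higher and 26.9% as lower. No member was at least 2-fold lower at 14 than at 3 days, beside 8.74% of all tested genes. The arrays of the 2 times did not overlap for 35 members, beside 46.1% of all tested genes. The largest rises were those of Mrps35 (0.90 ± 0.14), Mrpl42 (0.85 ± 0.12), Mrpl34 (0.77 ± 0.12), Mrpl28 (0.73 ± 0.11) and Mrps36 (0.73 ± 0.13). These counts depended on the processing. After subtraction of each array's median, 24 genes were higher and 7 lower, with a median of 0.16 relative to a median of -0.12 over all genes. In that setting 3032 of all 14870 tested genes were higher and 5274 lower. Blocking by slide, over the 10 arrays with scanner output, of which 2 are from 3 days, 6 were higher and 2 lower. All 14870 tested genes then gave 2342 higher and 2365 lower. Of the 77 genes 48 were lower than sham at both times and higher at 14 than at 3 days, and a further 22 were lower at both times with no call between them. Of all 14870 tested genes 14% and 6.53% had these patterns. The 3 comparisons share arrays, so their calls are not independent.

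The infarct arrays lay below the sham arrays one by one. The median over the 77 genes, relative to the sham mean, was 0.04, -0.10, -0.01 and 0.06 on the sham arrays. On the 3-day arrays it was -0.78, -0.88, -0.96, -0.82 and -0.77, and on the 14-day arrays -0.48, -0.46, -0.81, -0.45 and -0.37. Replicate 3 at 14 days lay within the range of the 3-day arrays, and the other 4 lay between the groups. Without replicate 3 the median change at 14 days was -0.44 with 67 genes lower, and between the times 61 genes were higher and 2 lower. Between 72 and 77 of the 77 genes were below every sham array on each infarct array. The matching share of all tested genes was not computed, so how unusual this is cannot be judged. Within slides that hold both groups, the median at 3 days was -0.77 on slide 2 and -0.89 on slide 3, where each comparison rests on 1 array a group. At 14 days it was -0.46 on slide 1 and -0.58 on slide 3, and every gene called in the whole fit had the same direction there. Slide 3 gave 0.29 between the times, and the called genes kept their direction. The arrays of these slides are part of the fit that gave the calls, so these directions are no separate evidence. The 3-day arrays 1 to 3 and 14-day array 2 have no slide on record here.

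Most genes that serve the mitochondrial ribosome fell too. The 5 tested subunits without an Mrp name all fell at 3 days (median -0.78) and at 14 days (median -0.44). The largest falls at 3 days were in Ptcd3 (-1.12 ± 0.11) and Dap3 (-1.01 ± 0.10), which binds GTP in the small subunit. Of 15 translation factors 13 fell at 3 days and 11 at 14 days (medians -0.98 and -0.43). Among them were Lrpprc, which stabilises mitochondrial messages (-1.55 ± 0.12), and the elongation factor Gfm1 (-1.22 ± 0.11). Of 27 factors for assembly and ribosomal RNA 25 fell at 3 days and 20 at 14 days (medians -0.84 and -0.44). The largest falls there were in Mrm1 (-1.67 ± 0.09) and Mrm3 (-1.24 ± 0.10), methyltransferases of the ribosomal RNA of the large subunit. From 3 to 14 days, 5 of 5, 11 of 15 and 18 of 27 genes of these lists rose, and none fell.

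Genes of mitochondrial transcription and its nuclear regulators were split: 12 of 18 fell and 3 rose at 3 days (median -0.78), and 9 fell and 1 rose at 14 days (median -0.38). The estrogen-related receptors Esrrb (-2.02 ± 0.13) and Esrrg (-1.63 ± 0.15), which drive mitochondrial genes in muscle, fell most. Myc, a growth-promoting transcription factor, rose by 2.97 ± 0.14, and Gabpb2, a partner of the ETS factor GABP, by 0.69 ± 0.15. Chosen after its values were seen, the coactivator Ppargc1a was lower at 14 than at 3 days. It stood against sham at -0.90 ± 0.18 at 3 days (limma adjusted p = 0.000622) and -1.38 ± 0.18 at 14 days (adjusted p = 0.000138). Its fall between the times (-0.48) also passed (adjusted p = 0.0278).

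Genes for ribosomal proteins of the cytosol, listed for comparison by name, moved the other way at 3 days. Of 86 tested, 62 were higher and 1 lower at 3 days (median 0.34), 3 higher and 4 lower at 14 days (median -0.03), and 68 lower and 1 higher between the times (median -0.37). Nuclear genes for subunits of the respiratory chain and ATP synthase fell in 79 of 82 cases at 3 days (median -1.30) and in 74 at 14 days (median -0.53). Between the times 78 of them rose (median 0.79, beside 0.35 for the mitochondrial ribosomal proteins). No difference between these lists was tested. With each array's median subtracted, or after quantile normalization, the medians at 3 days were -0.65 and -0.70 for the mitochondrial ribosomal proteins. They were 0.52 and 0.54 for the cytosolic ones and -1.12 and -1.11 for the respiratory chain. The array median moves the median of all genes from -0.15 to 0.03 at 3 days. It moves the share of higher genes among all genes called from 42.4% to 53.5% at 3 days and from 55.6% to 36.5% between the times. At 14 days that share was 39.6%, and 52.6% with the 75th percentile of tested probes.

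**Figure D4:**
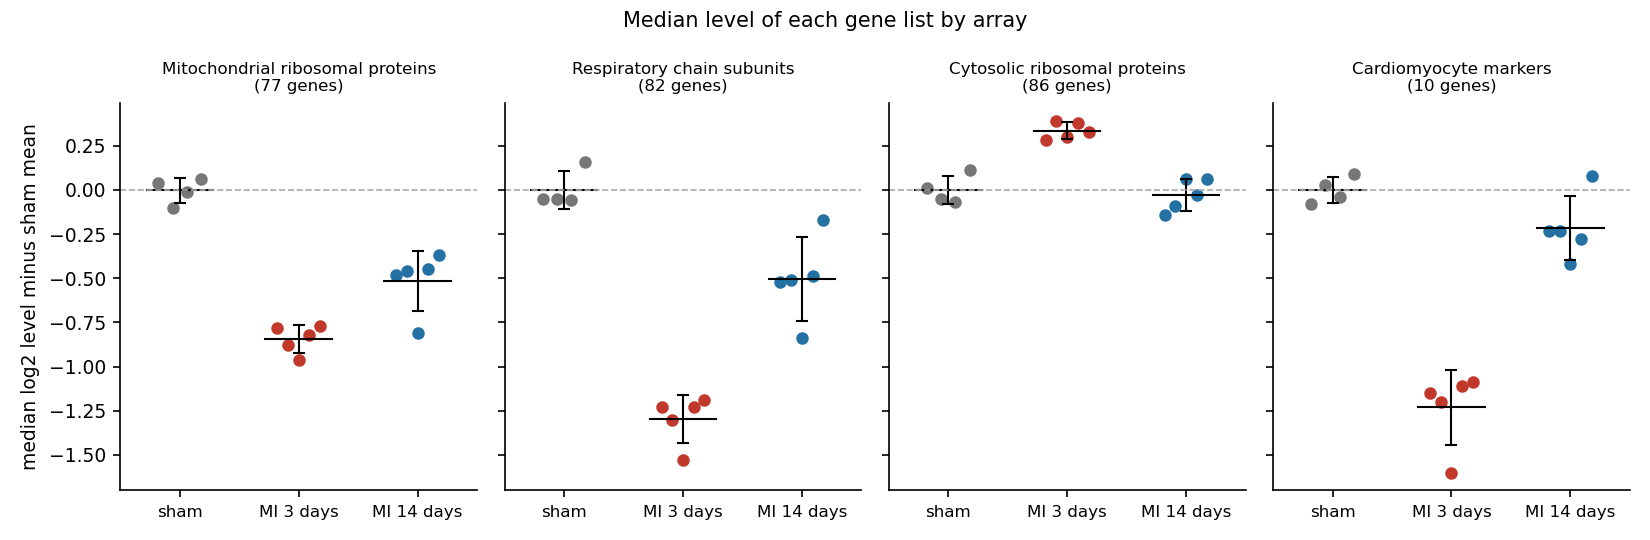
Median over each gene list of the log2 level minus the sham mean (y axis) on each array in sham (n = 4), MI 3 days (n = 5) and MI 14 days (n = 5); points are arrays, bars the mean ± SD over arrays. The mitochondrial ribosomal proteins, the respiratory chain and the cardiomyocyte markers are lowest at 3 days, while the cytosolic ribosomal proteins are highest then.

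Markers of cell types moved at the same times. All 10 cardiomyocyte markers fell at 3 days (median -1.24), and 5 did so at 14 days (median -0.26). Their summed level, relative to the 75th percentile, was 5450.9 to 6747.3 in sham, 3205.3 to 3829.2 at 3 days and 5459.5 to 7424.0 at 14 days. The brightest probes carry that sum: at 14 days Actc1, Myl2, Myh6, Mybpc3 and Tnnt2 were at -0.16 to 0.08, while Pln (-0.85), Ryr2 (-0.73), Tnni3 (-0.46), Ttn (-0.44) and Myoz2 (-0.36) fell. Markers of cycling cells passed as higher in 7 of 7 cases at 3 days (sums 1.4 to 3.6 in sham and 37.3 to 48.6 at 3 days) and in none at 14 days (sums 2.5 to 6.6). Mki67, Birc5 and Plk1, measured in every group, rose by 3.68, 4.24 and 4.58. Cdk1 and Ccnb1 missed the background criterion on 1 sham array, and Bub1 and Top2a were tested only through the 3-day group. Fibroblast markers rose in 7 of 9 cases at 3 days and 8 of 9 at 14 days (sums 457.3 to 486.9, 919.3 to 1279.5 and 1163.0 to 1679.2).

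Macrophage markers rose in 9 of 10 cases at 3 days, with Itgam lower (sums 207.9 to 262.0, 258.0 to 397.8 and 253.8 to 285.9). Itgam made up 63.0% to 72.0% of the sum in sham, and without it the sums were 73.4 to 92.1, 164.1 to 309.4 and 93.4 to 127.1. Of 5 neutrophil markers S100a8 (3.98) and S100a9 (3.50) rose at 3 days, and Csf3r fell (-0.19). Mmp9 and Cxcr2 also passed as higher, but were tested only through the 3-day group. None passed as higher at 14 days. The sums were 207.6 to 227.5, 190.7 to 269.6 and 213.7 to 238.1, with 97.0% to 98.9% from Csf3r in sham, and without it 2.3 to 6.3, 19.9 to 77.3 and 1.8 to 8.9. The atrial genes Sln, Myl4 and Myl7 were lower than sham at both times, and their levels varied widely between sham arrays (Myl7 0.54, 0.49, -1.78 and 1.50). Myl4, measured in every group, was at -2.73 at 3 days and -1.99 at 14 days. Sln and Myl7 were tested only through the sham group, and were well above background on 1 of the 2 arrays at 3 days and 2 and 3 of the 4 at 14 days that could be judged. Nppa, listed with them and also made by stressed ventricle, rose by 2.84 at 3 days. Of the 6 endothelial markers 2 fell and 1 rose at 3 days (sums 32.6 to 36.4, 28.7 to 35.4 and 30.3 to 34.4). Of 4 red cell markers none passed, of 3 adipocyte markers 1 fell, and of 3 skeletal muscle markers 2 rose and 1 fell at 3 days. The part of any of these cell types in the changes of the mitochondrial ribosomal proteins was not tested.

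In the RefSeq promoter table (GRCm38.p6), 69 of the 78 genes had an entry, from 250 bases before to 50 after the start. Many of these promoters lie close to another gene. For 23 of the 69 (33.3%) another gene began within 1000 bases upstream on the opposite strand, beside 10.0% of 11545 tested coding genes. In 20 such pairs both genes were tested. At 3 days 11 pairs fell together, and 6 pairs went apart, the ribosomal gene lower and its neighbour higher. The remaining 3 had a gene without a call. Among the higher neighbours, Ska3 and Eme1 were tested only through the 3-day group, where they are high. The filter favoured a call of higher for them, and the counts and shares given here include them. Of all 22 tested neighbours, which count Mrpl46 and Mrps11 each, 31.8% were higher and 54.5% lower. Among all tested genes these shares were 29.8% and 40.5%, so the share of higher neighbours was near the background. Among 459 other coding genes that fell at 3 days and had such a neighbour tested, the neighbour was higher for 23.3% and lower for 49.9%. For the 19 ribosomal genes that fell these shares were 31.6% and 57.9%, and the difference was not tested. Neighbours were named after their values had been seen.

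The widest gaps were those of Mrpl57 (-0.37 ± 0.08) with Ska3, a protein of the mitotic spindle, and of Mrpl27 (-0.57 ± 0.11) with Eme1, a subunit of a DNA repair nuclease (2.95 ± 0.24, adjusted p = 1.49e-07). Ska3 was not well above background on any sham or 14-day array that could be judged and was tested only through the 3-day group. It was at least 6.84-fold higher at 3 days than in sham, against the lowest level well above background on each sham array. This bound was not tested. Eme1 missed that criterion on 1 of the 4 sham arrays and was likewise tested only through the 3-day group. Starts in these pairs lie 76 and 48 bases apart. Mrpl30, at 6.04, 5.99, 6.15 and 6.18 in sham hearts and 4.84, 4.89, 4.66, 5.03 and 5.04 at 3 days, fell by 1.20 ± 0.12 with no overlap. Mitd1, a protein of cell abscission that starts 66 bases away, rose by 1.11 ± 0.09 (adjusted p = 2.41e-07). Mrpl51 (-1.02 ± 0.12) and the condensin subunit Ncapd2 (0.84 ± 0.09, adjusted p = 2.67e-06) differed too. So did Mrpl49 (-1.02 ± 0.13) and Fau (0.31 ± 0.09, adjusted p = 0.00952), whose product includes a protein of the cytosolic ribosome, and Mrpl40 (-0.31 ± 0.08) and the histone chaperone Hira (0.31 ± 0.11, adjusted p = 0.0238). Falling together were Mrpl47 and Ndufb5, a subunit of respiratory complex I (-1.40 ± 0.13), and Mrps12 and Sars2, the mitochondrial seryl-tRNA synthetase (-0.80 ± 0.11). Mrpl46 (-1.03 ± 0.12) and Mrps11 (-0.56 ± 0.15), which face each other across 42 bases, were the one pair within the set.

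**Figure D5:**
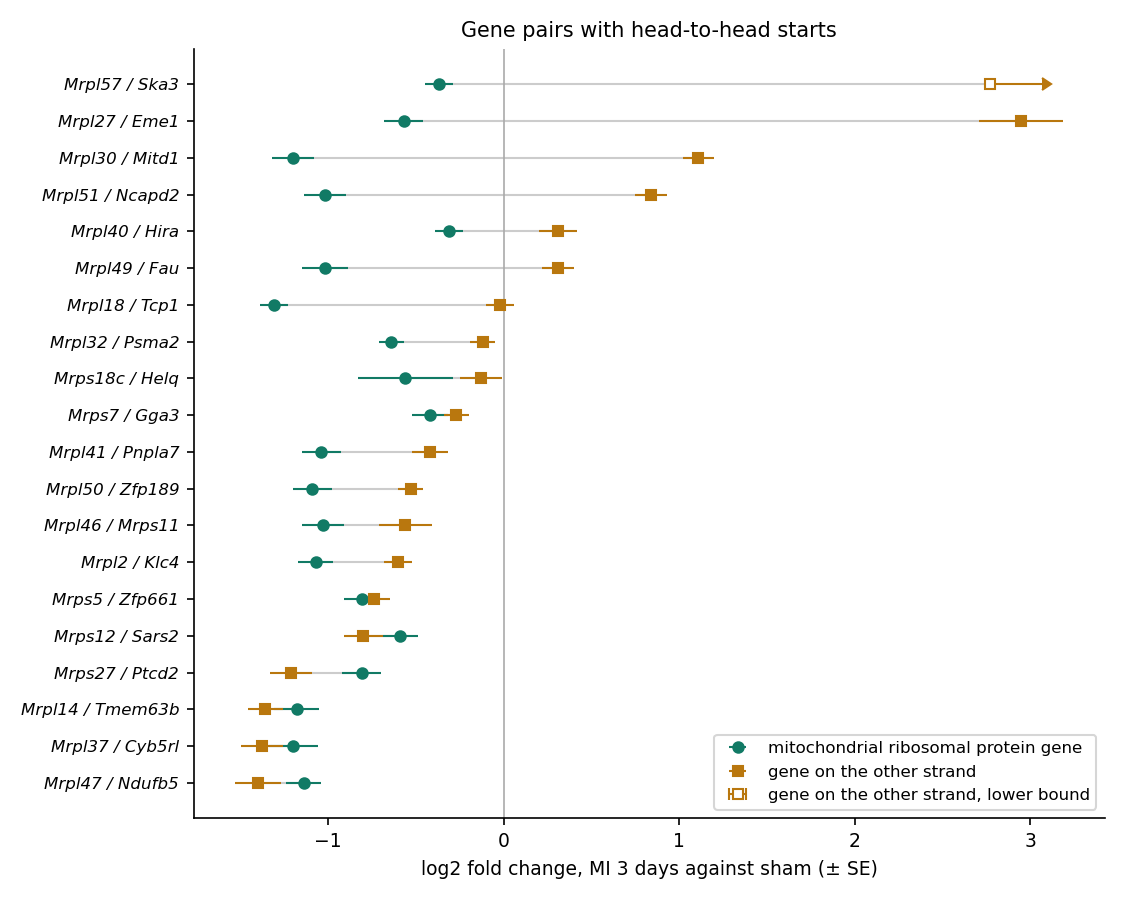
Log2 fold change ± SE at 3 days against sham (x axis) for the 20 pairs of a mitochondrial ribosomal protein gene (green circles) and the gene that starts upstream on the other strand (orange squares). The 6 pairs at the top have the ribosomal gene below 0 and its neighbour above 0; the open square with an arrow is the lower bound for Ska3, 2.77.

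For the pairs that went apart and the pair within the set, the reference bases just before the start of the ribosomal gene are shown, as far as they lie outside every annotated gene. For Mrpl30 and Mrpl51 this stretch is shorter than the distance between the starts. For Mrpl27 and Mrpl57 the annotated genes overlap, and none is shown. Each is written 5′ to 3′ on the strand of the ribosomal gene and ends at the base before its start. Capitals mark matches to motifs named in the next paragraph.
Mrpl30, next to Mitd1 (chr1:37890450-37890476, plus strand): aaacctttcCCGGAAccaaagaaccgt
Mrpl51, next to Ncapd2 (chr6:125192101-125192199, plus strand): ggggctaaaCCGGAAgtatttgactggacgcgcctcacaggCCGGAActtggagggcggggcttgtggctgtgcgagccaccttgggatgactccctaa
Mrpl40, next to Hira (chr16:18876638-18876749, minus strand): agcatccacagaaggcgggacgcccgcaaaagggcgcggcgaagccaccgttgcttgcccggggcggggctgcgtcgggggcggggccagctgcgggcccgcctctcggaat
Mrpl49, next to Fau (chr19:6057756-6057946, minus strand): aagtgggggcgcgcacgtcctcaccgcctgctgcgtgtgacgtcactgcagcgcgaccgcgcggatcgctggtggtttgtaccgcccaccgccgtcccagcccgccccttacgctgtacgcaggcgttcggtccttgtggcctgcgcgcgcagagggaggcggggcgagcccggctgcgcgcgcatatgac
Mrpl46, next to Mrps11 (chr7:78783090-78783130, minus strand): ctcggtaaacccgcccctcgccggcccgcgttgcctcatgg

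Motifs were searched as exact letters on both strands of the 300 bases, and a match is no evidence that a factor binds. The core of ETS factors such as GABP, CCGGAA, was found in 39 of the 69 promoters (56.5%), beside 25% of 11545 tested coding genes. The YY1 motif AAGATGGC was found in 12 (17.4%, beside 4.2%), and the NRF1 motif GCGCANGCG in 16 (23.2%, beside 12%). The E-box CACGTG was found in 5 (7.2%, beside 9.7%) and the estrogen-related receptor motif TCAAGGTCA in none (beside 0.3%). Median GC content was 58.4% and 58.8%. No motif's letters are contained in another's. Chosen as the factors of these motifs, Nrf1 was at -0.03 ± 0.07 against sham at 3 days, Yy1 at 0.16 ± 0.07 and Gabpb1 at 0.10 ± 0.07, none past the threshold, while Gabpa fell by 0.66 ± 0.12 (limma adjusted p = 0.000288). At 14 days Nrf1 was lower than sham (-0.23, adjusted p = 0.017). From 3 to 14 days Nrf1 (-0.19), Yy1 (-0.27) and Gabpb1 (-0.19) fell, with adjusted p of 0.0155, 0.00554 and 0.0259, and Gabpa rose (0.35, adjusted p = 0.0196). Of the estrogen-related receptors, Esrra fell at 3 days (-1.36 ± 0.12) and at 14 days (-0.73 ± 0.12), beside Esrrb and Esrrg above.

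The 250 bases before the start are shown for Mrpl42, the largest fall with an entry, and for Mrpl17 and Mrpl52, the only tested members above 0 at 3 days. The YY1 match of Mrpl42 lies past its start and is not in the stretch. In Mrpl17, capitals mark 1 ETS core and 2 NRF1 matches, and in Mrpl52 1 ETS core.
Mrpl42 (chr10:95501950-95502199, minus strand): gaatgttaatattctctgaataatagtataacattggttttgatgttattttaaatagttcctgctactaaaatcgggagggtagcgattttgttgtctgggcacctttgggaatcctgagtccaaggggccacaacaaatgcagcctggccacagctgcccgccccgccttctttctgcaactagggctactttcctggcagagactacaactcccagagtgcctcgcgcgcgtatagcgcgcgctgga
Mrpl17 (chr7:105811088-105811337, minus strand): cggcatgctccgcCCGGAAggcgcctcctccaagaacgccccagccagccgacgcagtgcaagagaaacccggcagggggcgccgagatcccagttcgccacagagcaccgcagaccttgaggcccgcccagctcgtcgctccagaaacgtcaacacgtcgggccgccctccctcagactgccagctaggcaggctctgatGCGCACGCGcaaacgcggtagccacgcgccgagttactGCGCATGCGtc
Mrpl52 (chr14:54426659-54426908, plus strand): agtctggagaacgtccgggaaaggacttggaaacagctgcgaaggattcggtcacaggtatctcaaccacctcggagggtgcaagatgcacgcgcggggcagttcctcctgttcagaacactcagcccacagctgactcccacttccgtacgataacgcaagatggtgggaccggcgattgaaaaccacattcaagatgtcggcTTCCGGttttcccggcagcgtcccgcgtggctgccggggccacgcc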

How the data were processed

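Ventricle samples of 14 mice, border zone tissue in the MI groups, were hybridised to 1-colour Agilent arrays. The authors deposited 1 linear Cy3 intensity per probe and array, unscaled between arrays. For 10 arrays (4 sham, 2 MI 3 days, 4 MI 14 days) scanner intensity was deposited too, made with Agilent Feature Extraction 10.7.3.1, per the file headers. There, values of single-spot probes matched between both sources. The role of limma, named in the submitters' processing notes, is not given in the sources used here.

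Log2 of the deposited intensity minus the array's 75th percentile was compared between the 3 groups in 1 limma model (limma 3.58.1, R 4.3.3; lmFit and eBayes, two-sided). Probes entered it when some group had all its scanner arrays well above background. P-values were adjusted by Benjamini-Hochberg across these 32261 probes, with a threshold of 0.05. Precision is limited by the number of arrays. The fit was tested on simulated data.

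Probes were named through their accession in RefSeq (GRCm38.p6), since the files hold no gene symbols; accessions shared by several genes were left unnamed. Of 55482 probes 27144 had a symbol. A further 199 probes of the scanner files had no row in the table. Members, lists, motifs, neighbours and printed promoters were chosen with earlier results of these data known. Named genes were, per comparison, the 8 largest falls and rises past the threshold without overlap. To these were added members against the main direction, with opposite probes or opposite signs at the 2 times, and the 6 smallest changes at 3 days. From each other list up to 4 genes were named; respiratory chain and cytosolic ribosomal genes were only counted. Alternatives were other scalings, filters, probes per gene, background corrections, the slide or replicate number as a block, and leaving out each array. The labels do not tie the replicate numbers to a shared batch or animal, so the main fit used no pairing. Over 13 pairs of the same number the deviations from group means correlated between -0.14 and 0.22, and 5 pairs were above 0.1. Of the 14 arrays 6 correlated best with an array of their own number. These values do not settle whether the numbers pair samples.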

Additional observations from a re-analysis of the deposited data

Results flagged for a closer look

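Samples standing apart from their group were looked for in the 25 named members over the groups of 4 or 5 arrays, 75 in all. Chance would mark about 1 in 20 of independent sets. These sets share arrays, and many of the genes were named for large changes, so that rate is no yardstick here. Of the 75 sets 7 were marked. In 5 of them replicate 3 at 14 days was the lowest array: Mrpl47 (2.88, next lowest 3.23), Mrpl52 (5.13, next 5.33), Mrpl55 (5.40, next 5.84), Mrps23 (5.23, next 5.89) and Mrps28 (4.36, next 4.79). The same array had the lowest median over all 77 genes in its group, -0.81. Its median over the respiratory chain subunits was also the lowest of its group, -0.84, as was that over the cardiomyocyte markers, -0.42, while that over the cycling-cell markers was the highest, 1.36. So were its medians over the adipocyte markers, 2.90 (-0.96 to 0.59 on the other 14-day arrays), and over the atrial genes, -1.11 (-3.39 to -2.41). The part of these in its low ribosomal levels was not tested. Mrps18c was lowest on replicate 1 at 14 days (2.27, next 3.66), and Mrpl45 on replicate 3 at 3 days (2.98, next 3.16). Mrpl52 differed between the 2 times after infarction, above sham at 3 days and below it at 14 days, and the test of that difference gave -0.61 ± 0.08 (limma adjusted p = 2e-05).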

How the results depend on the processing

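The median over the members kept its direction in each of the 26 settings tried, in all 3 comparisons. The median at 3 days (-0.83) was -0.65 with the array median subtracted and -0.70 after quantile normalization. With normexp on spot medians (10 arrays) it was -0.72 scaled to the 75th percentile and -0.66 quantile normalized. The count at 14 days (74) was 38 with the slide as a block and 47 with normexp and quantile normalization, and the count between the times (54) was 31 (array median), 30 (scanner signal of 10 arrays), 8 (slide as a block), 18 (normexp, 75th percentile) and 34 (normexp, quantile). That median (0.35) was 0.16 with the array median. The scanner signal of the same 10 arrays with neither block nor normexp gave 62 genes at 14 days and 30 between the times; the cause was not tested. Leaving out 1 array gave 72 to 76 genes at 3 days (median -0.86 to -0.80), 62 to 73 at 14 days (-0.55 to -0.44) and 46 to 63 between the times (0.32 to 0.40).

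With the replicate number as a block, 74, 72 and 53 genes passed in the 3 comparisons, with medians of -0.84, -0.54 and 0.35; 6 of 14 arrays correlated best with an array of their own number. Over the 25 named genes and 26 settings, 1765 of 1950 values kept direction and call, 160 lost the call, 12 gained it and 13 turned. Those that turned were Mrpl20 at 3 days (0.01) and Mrpl52 at 14 days (0.03), both with normexp and quantile normalization, and, between the times, Mrps10 in the same setting (0.09) and Mrps18c without MI 14 days replicate 1 (0.08; -0.35 at the lowest with 1 array left out). For Mrpl15 between the times, not past the threshold at 0.03, the value was -0.17 with the array median, -0.07 with the scanner signal, -0.01 with the slide as a block, -0.28 with the mean of its probes, -0.005 without MI 3 days replicate 2, -0.01 without MI 14 days replicate 2, -0.00098 without MI 14 days replicate 5, -0.07 with normexp and the 75th percentile and -0.0016 with normexp and quantile normalization; leaving out 1 array gave up to 0.11. The normexp settings were chosen after the files were seen, because the files hold no mean spot signal; the planned normexp on mean signals was not run.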
